A study of Homo sapiens with 12 samples.

Results

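The genes described here are 10 components of the circadian clock: BHLHE40 and BHLHE41, PER1, PER2 and PER3, CRY1 and CRY2, NR1D1 and NR1D2, and DBP. They were taken by symbol from the platform annotation, as 10 of the 18810 genes with a named probe in the normalized table, and they had 13 probes. Of these, 8 probes for 7 genes passed the filter on dim probes and were tested. The other 5 probes did not pass, and BHLHE41, PER1 and NR1D1 had no tested probe. The rule itself used symbols and no measured value, but the set was proposed with earlier results of these data known.

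The RNA came from A375, an established human melanoma cell line. Crizotinib, a kinase inhibitor of MET and ALK, was given for 24 h on 2 arrays and for 8 h on 3 arrays. Ciclopirox, an antifungal agent that chelates iron, was given for 24 h on 2 arrays and for 8 h on 3 arrays. The 2 control arrays held cells given the vehicle DMSO, and no exposure time is stated for them, so the same 2 arrays stood against both times. A change between 8 h and 24 h of a drug therefore cannot be told apart from a change with time in culture. Each drug was used at its 75% inhibitory concentration, determined over 72 h. The titles number the replicates without saying that they were separate cultures, so a p-value weighs a difference against array-to-array spread, and that spread may be technical. The 12 arrays, all on 1 chip, are few, and their number limits the precision of every value.

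In the mammalian clock, CLOCK and BMAL1 bind E-box sequences in DNA and switch on the PER and CRY genes, whose proteins return to the nucleus and repress CLOCK and BMAL1. A second loop runs through NR1D1 and NR1D2, nuclear receptors that repress BMAL1, and DBP is an activator whose own transcription is a direct output of CLOCK and BMAL1. BHLHE40 and BHLHE41 (also called DEC1 and DEC2) are repressors that bind the same E-boxes, and BHLHE40 is also known outside the clock as a gene induced by hypoxia and by other stresses. A single sample per culture reads the average of its cells, so clocks that run out of step between cells are not seen, and no phase can be read from 2 time points.

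The deposited tables conflicted in their sample names, and every result below rests on the names of the normalized table. Over 12902 probes detected on all arrays, each array of that table followed a single column of the scanner table closely, with r of 0.928 to 0.979 against at most 0.833 for the next column. For 2 arrays, the controls, that column was the one given in the array's description, and for 10 it was another. Under the normalized table's names each of the 12 arrays lay nearest to an array of its own group, and under the descriptions' names 7 of 12 did. With the scanner signals named by the descriptions, all 21 calls made below were lost and 8 of them turned direction. In most comparisons no probe of any gene passed under those names. Which naming is right cannot be told from the sources used here. The intensities had nearly equal distributions on all arrays, with medians of 28.3 to 29.6, so a change in total RNA cannot be seen in them. Values were called above background over a threshold of 38.4 to 42.6, depending on the array. As checks of the cell type, SOX10 of the 7 melanocyte lineage genes was above background on all 12 arrays (2211.1 to 3828.3). MLANA, TYR, TYRP1 and S100B were above it on none, and PMEL on 1. MITF was above it on 8 arrays on probe ILMN_2304186 and on none on its other probes. Of 3 genes of the neural crest like state, AXL (5519.2 to 8192.5) and EGFR, on 1 of its 4 probes, were above background on all arrays, and NGFR (21.5 to 33.1) was on none. LUM was the only gene of 5 for fibroblasts, 3 for leukocytes, 3 for endothelium and 3 for keratinocytes to be above background on all arrays. That held on probe ILMN_1790529 (41.8 to 93.4), while its other probe (15.1 to 29.6) was above background on none.

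The promoters of BHLHE40 and CRY1, the genes with the most calls, are shown. BHLHE40 and the clock activators act through E-boxes, and hypoxia-inducible factors act through the cores ACGTG and GCGTG. Each sequence covers the 250 bases before the start of the gene, from RefSeq on build GRCh38.p14, at chr3:4979187-4979436 on the plus strand for BHLHE40 and at chr12:107093550-107093799 on the minus strand for CRY1. Capitals mark each match to the E-box CACGTG, to its variant CACGTT or to the core ACGTG on either strand. The core ACGTG is part of the E-box and, on the other strand, of the variant. Matches to the core GCGTG are not in capitals.
BHLHE40: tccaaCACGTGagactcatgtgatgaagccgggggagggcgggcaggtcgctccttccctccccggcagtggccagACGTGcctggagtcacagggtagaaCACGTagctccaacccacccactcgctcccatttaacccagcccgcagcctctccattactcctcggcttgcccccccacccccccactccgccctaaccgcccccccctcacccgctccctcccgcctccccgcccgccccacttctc
CRY1: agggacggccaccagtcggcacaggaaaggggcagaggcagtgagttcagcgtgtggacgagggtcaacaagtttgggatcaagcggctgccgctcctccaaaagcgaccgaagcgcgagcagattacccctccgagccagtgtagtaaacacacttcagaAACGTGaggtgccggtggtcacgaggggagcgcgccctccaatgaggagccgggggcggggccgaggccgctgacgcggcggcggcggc

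BHLHE40 held the E-box CACGTG beginning 245 bases before the start, and 4 matches to ACGTG, beginning 245, 244, 174 and 149 bases before it. CRY1 held CACGTT as its other strand, 89 bases before the start, with an overlapping ACGTG. It also held 1 match to GCGTG, beginning 201 bases before the start, and BHLHE40 held 0. Among the 13 promoter windows of the 10 genes, some of which have more than 1, CACGTG was found in 4, CACGTT in 4, ACGTG in 8, GCGTG in 7, the nuclear receptor site AGGTCA in 3, the D-box form TTATGTAA in 2 and the D-box form TTACGTAA in 0. Over all 35116 RefSeq promoter windows of the same length, the shares with a match were 6.34% for CACGTG, 4.55% for CACGTT, 18.5% for ACGTG, 32.2% for GCGTG, 12.1% for AGGTCA, 0.834% for TTATGTAA and 0.105% for TTACGTAA. These are letter matches on both strands and were not measured as binding sites.

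Among the 7 genes with a tested probe, BHLHE40 had the largest change against control in every group except crizotinib 8 h. It was raised after 24 h of crizotinib and at both times of ciclopirox, and its level after 8 h of crizotinib differed little from control. Its single probe read 1434.5 and 1359.0 after 24 h of crizotinib, 415.7, 413.3 and 429.9 after 8 h of crizotinib, 691.5 and 717.0 after 24 h of ciclopirox, 874.2, 860.8 and 883.8 after 8 h of ciclopirox, and 386.9 and 386.3 in control. No groups overlapped on this probe, not even crizotinib 8 h and control, whose difference did not pass the test. How many of all probes part in this way was not counted. RNA of a whole culture cannot tell fewer cells with a transcript from less of it per cell. The order of the group means was crizotinib 24 h (1397 ± 53.4), ciclopirox 8 h (873 ± 11.6), ciclopirox 24 h (704 ± 18.1), crizotinib 8 h (420 ± 8.95) and control (387 ± 0.422; SD of normalized intensity).

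Against control, BHLHE40 was 3.61-fold higher after 24 h of crizotinib (log2 change 1.85 ± 0.08 SE, 95% confidence interval 1.67 to 2.04, limma adjusted p = 9.14e-07). This change ranked 74 by size among the 16563 tested probes. After 8 h of crizotinib the log2 difference from control was 0.12 ± 0.08, with an interval of -0.05 to 0.29 (adjusted p = 0.368), and did not pass the test. Under ciclopirox the gene was 1.82-fold higher than control at 24 h (log2 change 0.86 ± 0.08, interval 0.68 to 1.05, adjusted p = 0.000402). At 8 h of ciclopirox it was 2.26-fold higher (1.17 ± 0.08, interval 1.01 to 1.34, adjusted p = 8.59e-05), where it ranked 38 by size.

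The drugs differed in the timing of BHLHE40. Under crizotinib it was 3.33-fold higher at 24 h than at 8 h (log2 change 1.73 ± 0.08, limma adjusted p = 8.23e-07). Under ciclopirox it was lower at 24 h than at 8 h, by a log2 change of -0.31 ± 0.08 (adjusted p = 0.0213). That smaller change lost its call in 4 of the 12 fits that each left out an array: without ciclopirox 24 h replicate 1 (adjusted p = 0.104) or replicate 2 (0.064), and without ciclopirox 8 h replicate 1 (0.0546) or replicate 3 (0.0635). The change between the times under crizotinib exceeded that under ciclopirox by 2.04 ± 0.11 on the log2 scale (interval 1.81 to 2.28, adjusted p = 1.59e-05), rank 20 by size among all tested probes. Between the drugs at matched times, BHLHE40 was 1.98-fold higher in crizotinib than in ciclopirox at 24 h (0.99 ± 0.08, adjusted p = 3.79e-05) and lower in crizotinib than in ciclopirox at 8 h (-1.06 ± 0.07, adjusted p = 1.87e-05).

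**Figure D1:**
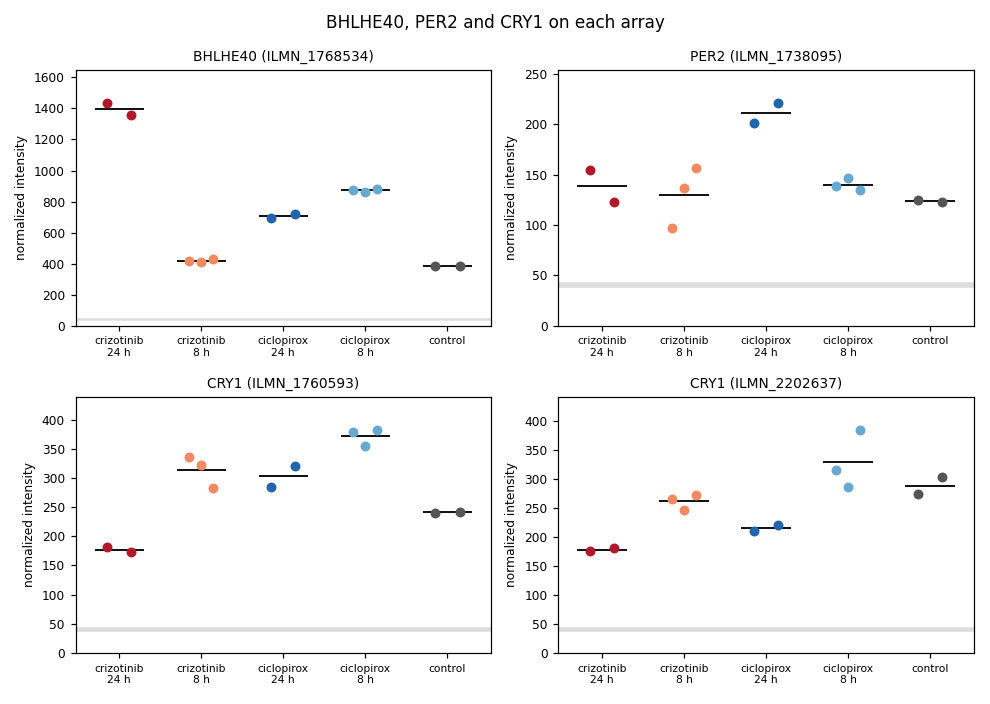
Normalized intensity (linear axis from 0) of BHLHE40, PER2 and both CRY1 probes, a panel each. Groups run from crizotinib 24 h at the left to control at the right, points are arrays, lines are group means and the grey band is the range of the arrays' background thresholds (38.4 to 42.6). BHLHE40 reads 1434.5 and 1359.0 after 24 h of crizotinib against 386.9 and 386.3 in control, and PER2 is highest after 24 h of ciclopirox (201.1 and 221.1).

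CRY1, a repressor of CLOCK and BMAL1, was lower than control after 24 h of crizotinib on both of its probes. Probe ILMN_1760593 read 181.9 and 172.4 after 24 h of crizotinib, 336.3, 322.6 and 282.2 after 8 h of crizotinib, 284.5 and 320.8 after 24 h of ciclopirox, 378.8, 353.9 and 381.6 after 8 h of ciclopirox, and 240.0 and 242.3 in control. Probe ILMN_2202637 read 175.2 and 180.6 after 24 h of crizotinib, 266.4, 247.4 and 271.7 after 8 h of crizotinib, 210.4 and 220.0 after 24 h of ciclopirox, 316.2, 286.0 and 384.0 after 8 h of ciclopirox, and 273.4 and 303.6 in control. On both probes the crizotinib 24 h arrays lay below all others, and the ciclopirox 8 h arrays were the highest apart from an overlap with control on ILMN_2202637.

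After 24 h of crizotinib CRY1 differed from control by -0.70 ± 0.13 (limma adjusted p = 0.00376) on ILMN_2202637 and by -0.45 ± 0.11 (adjusted p = 0.0136) on ILMN_1760593. The second of these was lost without control replicate 1 (adjusted p = 0.0582), control replicate 2 (0.0607) or crizotinib 24 h replicate 2 (0.0733). It was also lower at 24 h than at 8 h of crizotinib on both probes, by -0.82 ± 0.10 (adjusted p = 0.000198) on ILMN_1760593 and -0.56 ± 0.12 (adjusted p = 0.00564) on ILMN_2202637. These changes with time use no control array, and each kept its call in all 12 fits without an array.

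The CRY1 probes parted in the other comparisons with control. At 8 h of ciclopirox ILMN_1760593 was 1.54-fold higher than control (0.62 ± 0.10, adjusted p = 0.00695, and 0.0606 without control replicate 1), while ILMN_2202637 had a log2 difference of 0.18 (adjusted p = 0.392). At 8 h of crizotinib ILMN_1760593 differed by 0.38 ± 0.10, at the edge of the test (adjusted p = 0.0499), and ILMN_2202637 by -0.14 (adjusted p = 0.519). That edge call was lost in 9 of the 12 fits without an array, with adjusted p of 0.0632 to 0.194, and stayed without either ciclopirox 24 h array (0.0476 each) and without crizotinib 8 h replicate 3 (0.0346). At 24 h of ciclopirox the differences of 0.32 (adjusted p = 0.0982) and -0.42 (adjusted p = 0.0807) passed on neither probe and had opposite signs. Between the drugs at 24 h, ILMN_1760593 was lower in crizotinib than in ciclopirox by -0.77 ± 0.11 (adjusted p = 0.000971), and ILMN_2202637 differed by -0.27 (adjusted p = 0.179). Between the times of ciclopirox, ILMN_2202637 was lower at 24 h than at 8 h by -0.60 ± 0.12 (adjusted p = 0.00907, and 0.0601 without ciclopirox 24 h replicate 1), and ILMN_1760593 differed by -0.30 (adjusted p = 0.0693). The change between the times differed between the drugs by -0.52 ± 0.14 on ILMN_1760593 (adjusted p = 0.0484, lost in 10 of 12 fits without an array) and by 0.04 on ILMN_2202637 (adjusted p = 0.904). Which transcripts each probe reads was not examined.

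PER2, another repressor of the loop, was higher than control after 24 h of ciclopirox and passed the test against control in no other group; its differences there were 0.16 after 24 h of crizotinib (limma adjusted p = 0.594), 0.05 after 8 h of crizotinib (0.903) and 0.18 after 8 h of ciclopirox (0.567). Probe ILMN_1738095 read 154.7 and 123.2 after 24 h of crizotinib, 96.6, 136.9 and 156.6 after 8 h of crizotinib, 201.1 and 221.1 after 24 h of ciclopirox, 138.6, 146.8 and 135.3 after 8 h of ciclopirox, and 124.5 and 122.5 in control. The ciclopirox 24 h arrays lay above all others, and crizotinib 8 h spread over a wide range. The level at 24 h of ciclopirox was 1.71-fold control (0.77 ± 0.19, limma adjusted p = 0.0414) and was higher than at 8 h of ciclopirox (0.59 ± 0.18, adjusted p = 0.048). It was lower in crizotinib than in ciclopirox at 24 h (-0.61 ± 0.19, adjusted p = 0.0499). All 3 calls lay near the threshold. Without 1 array the first was lost in 8 of 12 fits (log2 change 0.70 to 0.84 over all 12), and it stayed without crizotinib 8 h replicate 1 (adjusted p = 0.0103) or 3 (0.0289) or either crizotinib 24 h array (0.0458 each). The others were lost in 10 fits each, with log2 changes of 0.52 to 0.66 and -0.78 to -0.45 over the 12 fits, and stayed without crizotinib 8 h replicate 1 or 3. The 2 further PER2 probes were not tested: ILMN_1668708 read 20.0 to 28.9, below the background threshold on all arrays, and ILMN_1740915 read 25.6 to 44.3, around it.

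DBP, the clock-controlled activator, read 75.0 and 87.8 after 24 h of crizotinib, 38.6, 67.9 and 44.3 after 8 h of crizotinib, 59.5 and 56.4 after 24 h of ciclopirox, 36.9, 55.3 and 37.7 after 8 h of ciclopirox, and 54.0 and 75.5 in control. It was above background on both arrays of crizotinib 24 h, ciclopirox 24 h and control, on 2 of 3 of crizotinib 8 h and on 1 of 3 of ciclopirox 8 h. The crizotinib 24 h arrays lay above those of crizotinib 8 h, with a log2 change of 0.73 ± 0.25 (limma adjusted p = 0.0447). That call was lost in 8 of 12 fits without an array (log2 change 0.57 to 0.97 over the 12) and stayed without either control array (0.0447 each), ciclopirox 8 h replicate 2 (0.0325) or crizotinib 8 h replicate 2 (0.0103). Against control no DBP difference passed: the log2 values were 0.35 after 24 h of crizotinib, -0.39 after 8 h of crizotinib, -0.14 after 24 h of ciclopirox and -0.59 after 8 h of ciclopirox (adjusted p of 0.174 to 0.804).

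CRY2, NR1D2 and PER3 were tested and called in none of the 9 comparisons. Their log2 differences from control lay between -0.46 (CRY2 after 24 h of ciclopirox, interval -0.95 to 0.03) and 0.23 (PER3 after 8 h of crizotinib, interval -0.24 to 0.71). CRY2, the second cryptochrome, read 88.9 and 86.4 after 24 h of crizotinib, 66.2 to 75.9 after 8 h of crizotinib, 57.7 and 70.4 after 24 h of ciclopirox, 56.4 to 78.6 after 8 h of ciclopirox, and 68.2 and 112.3 in control. The control arrays were far apart and spanned most of the other values. NR1D2, a nuclear receptor repressor, read 73.6 and 49.5 after 24 h of crizotinib, 57.7 to 91.3 after 8 h of crizotinib, 46.2 and 64.7 after 24 h of ciclopirox, 54.9 to 84.8 after 8 h of ciclopirox, and 57.5 and 82.2 in control, with all groups overlapping. PER3 read 29.4 to 52.6 over all arrays and was above background on 1 of 2 arrays of crizotinib 24 h, 2 of 3 of crizotinib 8 h, 0 of 2 of ciclopirox 24 h, 1 of 3 of ciclopirox 8 h and 1 of 2 of control. At these levels a change in PER3 could not be detected firmly.

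BHLHE41, the nearest relative of BHLHE40, read 17.3 to 28.7 over the 12 arrays and was above background on none. NR1D1 read 18.1 to 27.7 and was likewise above background on none. PER1 read 19.6 to 29.4 on 11 arrays and 61.2 on crizotinib 8 h replicate 2. Whether these 3 genes changed was not detectable with these probes.

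**Figure D2:**
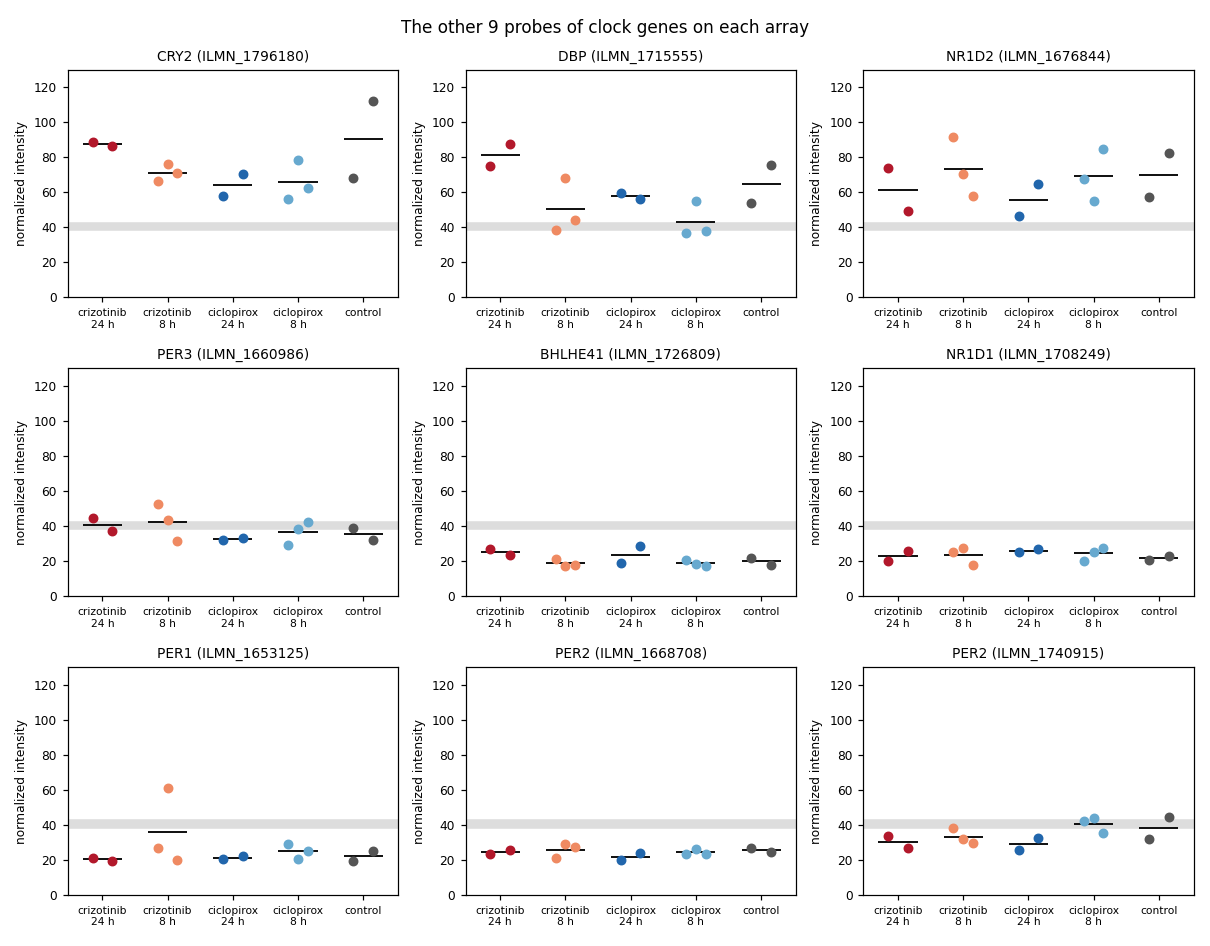
Normalized intensity (linear axis from 0) of the other 9 clock probes, a panel each, with groups from crizotinib 24 h at the left to control at the right, points as arrays, lines as group means and the grey band as the range of the background thresholds (38.4 to 42.6). BHLHE41 (17.3 to 28.7) and NR1D1 (18.1 to 27.7) lie below the band on every array, and PER1 exceeds it on 1 array, at 61.2.

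By comparison, the count of tested clock probes that passed was as follows, beside the share of all 16563 probes that passed. After 24 h of crizotinib 3 of 8 passed against control (BHLHE40 higher, both CRY1 probes lower) against 25.8% of all probes (13.0% higher, 12.9% lower), and the median log2 change was 0.08 over the 8 clock probes and 0.0 over all. After 8 h of crizotinib 1 of 8 passed (CRY1 ILMN_1760593, higher), against 7.05% of all (3.58% higher, 3.47% lower), with medians of 0.06 and -0.01. After 24 h of ciclopirox 2 of 8 passed (BHLHE40 and PER2, higher), against 7.03% (3.95% higher, 3.09% lower), with medians of -0.13 and 0.0. After 8 h of ciclopirox 2 of 8 passed (BHLHE40 and CRY1 ILMN_1760593, higher), against 7.84% (3.51% higher, 4.33% lower), with medians of 0.11 and 0.0. These comparisons share the same 2 control arrays.

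Between the times of crizotinib 4 of 8 passed (BHLHE40 and DBP higher at 24 h, both CRY1 probes lower) against 33.3% of all probes (17.4% higher, 15.9% lower), with medians of 0.04 and 0.01. Between the times of ciclopirox 3 of 8 passed (PER2 higher at 24 h, BHLHE40 and CRY1 ILMN_2202637 lower), against 15.7% (8.91% higher, 6.84% lower), with medians of -0.23 and 0.0. For crizotinib against ciclopirox, 3 of 8 passed at 24 h (BHLHE40 higher, CRY1 ILMN_1760593 and PER2 lower), against 19.9% of all (9.89% higher, 10.0% lower), with medians of 0.23 and -0.01. At 8 h 1 of 8 passed (BHLHE40, lower), against 7.11% of all (3.51% higher, 3.6% lower), with medians of -0.03 and -0.01. The difference between the drugs in their change with time passed for 2 of 8 (BHLHE40 and CRY1 ILMN_1760593), against 8.2% of all probes (3.88% with a positive difference, 4.32% with a negative one), with medians of 0.09 and 0.0. With 8 probes, 1 gene of which has 2, these shares are too coarse to set the clock genes apart from other genes.

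**Figure D3:**
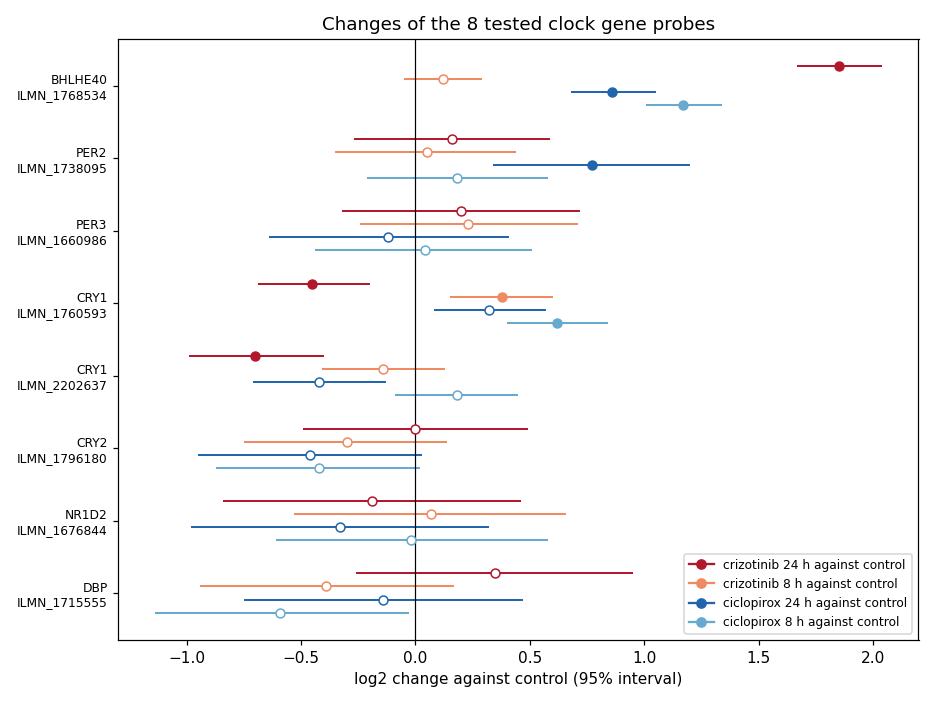
Log2 change against control of the 8 tested clock probes (rows), with a colour for each treatment group, points as limma estimates, bars as 95% confidence intervals not adjusted for multiple tests, and filled points where the adjusted p was under 0.05. BHLHE40 stands at 1.85 after 24 h of crizotinib and 1.17 after 8 h of ciclopirox, and the intervals of CRY2, NR1D2 and PER3 cross 0 in all groups.

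Other genes of the clock were read as a list: the activators, the related bZIP factors, the enzymes that modify PER and CRY, and further regulators and outputs. Of 38 with a probe, 29 were tested, on the brightest probe each. After 24 h of crizotinib 5 of 29 were higher than control and 4 lower (median -0.08), where 13.0% of all probes were higher and 12.9% lower. After 8 h of crizotinib 0 were higher and 0 lower (median -0.04), against 3.58% and 3.47% of all probes. After 24 h of ciclopirox 3 were higher and 0 lower (median 0.02), against 3.95% and 3.09%. At 8 h of ciclopirox 3 were higher and 1 lower (median 0.01), against 3.51% and 4.33%. The shares of all probes, here and below, also cover dimmer probes of the same genes, so they are not a matched background. With the brightest probe of each gene alone, 3204 of 10330 passed for crizotinib 24 h against control, in either direction. The numbers were 1012 for crizotinib 8 h, 1097 for ciclopirox 24 h and 1151 for ciclopirox 8 h.

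Among the activators, CLOCK read 176.8 and 163.9 after 24 h of crizotinib against 270.3 and 251.5 in control. Its log2 change was -0.62 (limma adjusted p = 0.00251), and -0.30 on its other probe. NPAS2, a relative of CLOCK, read 199.9 and 223.8 after 24 h of crizotinib against 116.1 and 121.6 in control (0.83, adjusted p = 0.00167). RORA, a nuclear receptor that activates BMAL1, was higher after 24 h of crizotinib by 0.70 (adjusted p = 0.0337), but was above background on 1 of 2 control arrays. BMAL1, the partner of CLOCK, read 85.1 and 76.8 after 24 h of ciclopirox, 38.0, 35.5 and 46.2 after 8 h of ciclopirox, and 56.1 and 46.4 in control. It was higher at 24 h of ciclopirox than in control (0.66, adjusted p = 0.0201, lost in 5 of 20 alternatives on the normalized table) and than at 8 h of ciclopirox (1.03, adjusted p = 0.00096). In crizotinib at 24 h it read 44.3 and 40.8, below ciclopirox at 24 h (-0.93, adjusted p = 0.00132). The change with time differed between the drugs (-0.98, adjusted p = 0.00979). BMAL1 was above background on 1 of 3 arrays at 8 h of each drug, and its values at 24 h of crizotinib lay near the threshold. The sizes of these differences are therefore uncertain. Its other probe did not pass the filter.

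TIPIN and TIMELESS, partners that also act at replication forks, were lower after 24 h of crizotinib than in control, by -1.18 (limma adjusted p = 0.000117) and -0.64 (adjusted p = 0.000532). TIPIN read 193.2 and 192.8 after 24 h of crizotinib and 416.2 and 460.4 in control. ID2, an inhibitor of basic helix-loop-helix factors, read 181.1 and 140.2 after 24 h of crizotinib against 79.1 and 105.2 in control (0.81, adjusted p = 0.00572, and 0.31 on its other probe). SIRT1, a deacetylase, was also lower after 24 h of crizotinib (-0.50, adjusted p = 0.0238), and RBM3, a cold-inducible RNA-binding protein, was higher after 24 h of crizotinib (0.50, adjusted p = 0.00799) and after 24 h of ciclopirox (0.46, adjusted p = 0.0355). Over 20 alternatives on the normalized table, the calls of CLOCK, NPAS2, TIMELESS and TIPIN after 24 h of crizotinib were lost in 0, those of ID2 in 2, of RBM3 in 3, and of RORA and SIRT1 in 5 each. The RBM3 call after 24 h of ciclopirox was lost in 10 of the 20. USP9X, the remaining gene called higher after 24 h of crizotinib, changed by 0.32 (limma adjusted p = 0.0433). Its other probe gave -0.38, and its call was lost in 13 of the 20.

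KLF9, a zinc finger factor, read 451.6, 478.2 and 475.8 after 8 h of ciclopirox against 1125.1 and 1040.7 in control. Its log2 change was -1.21 (limma adjusted p = 0.000928). At 24 h of ciclopirox it read 1266.4 and 1023.3, above the 8 h level (1.28, adjusted p = 0.000238), and the control values lay within the range at 24 h. KLF10, a relative, read 132.4 and 118.1 after 24 h of ciclopirox, 119.1, 111.6 and 98.3 after 8 h of ciclopirox, and 59.7 and 76.6 in control. Its log2 changes against control were 0.89 at 24 h (adjusted p = 0.0184, and 0.25 on its other probe) and 0.69 at 8 h (adjusted p = 0.0321, and 0.48 on its other probe). NAMPT, an enzyme of NAD synthesis, was higher after 8 h of ciclopirox by 0.53 (0.65 on its other probe), and USP7, a deubiquitinase of CRY proteins, by 0.34. Over the same 20 alternatives the KLF9 calls between 8 h of ciclopirox and control and between the times were lost in 0. The KLF10 calls against control were lost in 5 at 24 h and in 7 at 8 h, that of NAMPT in 11 and that of USP7 in 7.

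Between the times of crizotinib, 5 of 29 were higher at 24 h and 4 lower (median 0.02), against 17.4% and 15.9% of all probes, with ID2 highest (0.96) and TIPIN lowest (-1.43, limma adjusted p = 1.58e-05). Between the times of ciclopirox 3 were higher at 24 h (KLF9, BMAL1 and NPAS2) and 3 lower (TIPIN, NAMPT and USP7), against 8.91% and 6.84% of all probes, with a median of 0.01. In crizotinib against ciclopirox, 1 was higher at 24 h (ID2, 1.26, adjusted p = 0.000626) and 5 lower (median -0.08), against 9.89% and 10.0% of all probes. The lowest of those was KLF10 (-1.16, adjusted p = 0.00169), whose other probe gave 0.61. At 8 h 1 was higher in crizotinib (KLF9, 0.74) and 3 lower (KLF10, NOCT and USP7; median -0.07), against 3.51% and 3.6% of all probes. Of these calls, NOCT was lost in 17 of 20 alternatives on the normalized table (adjusted p up to 0.16) and USP7 in 5. The change with time differed between the drugs for 4 of 29, ID2 with a positive difference (1.17) and BMAL1, KLF9 and TIPIN with negative ones (median -0.05), against 3.88% and 4.32% of all probes. The TIPIN call there was lost in 15 of 20 alternatives (adjusted p up to 0.18) and that of KLF9 in 3. The NAMPT call between the times of ciclopirox was lost in 6 and the NPAS2 call in 1.

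**Figure D4:**
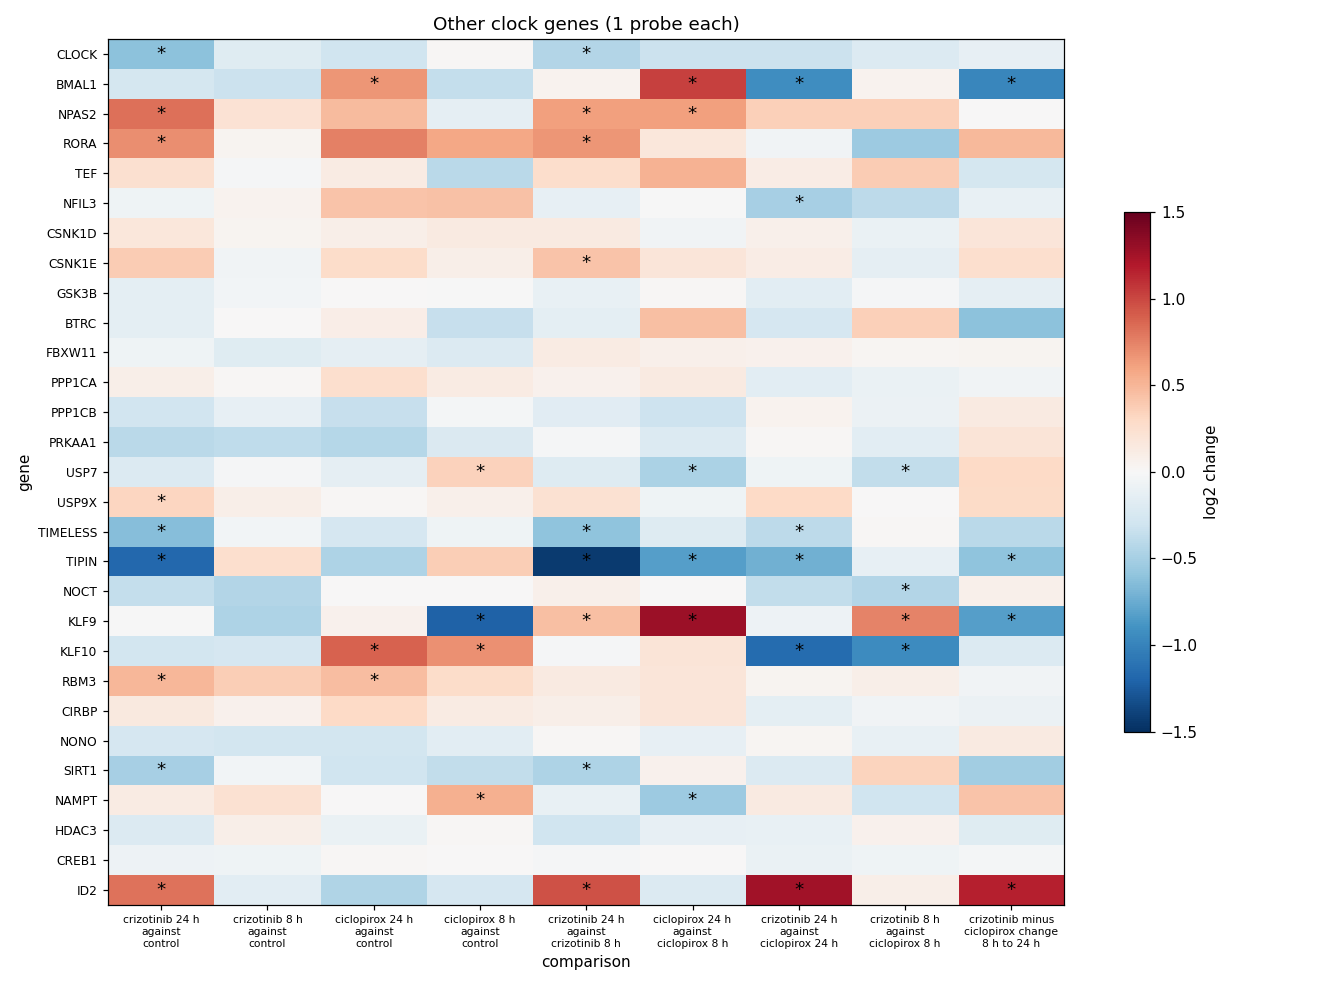
Log2 change of the 29 other tested clock genes (rows) in each of the 9 comparisons (columns), coloured on a scale that is blue for lower and red for higher, with a star where the limma adjusted p was under 0.05. Among the columns against control, the lowest values are KLF9 at -1.21 after 8 h of ciclopirox and TIPIN at -1.18 after 24 h of crizotinib.

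The genes whose levels most resembled BHLHE40 were ranked by Pearson's r of log2 values over the 12 arrays, among 9594 genes. This is a description with no test. A gene with several probes entered with its highest r at the high end and its lowest r at the low end. Other probes of the named genes were not compared. The arrays share groups, a chip and a normalization, so these r values are over 12 points that fall into 5 groups. The highest were CHURC1 (0.938), RABGGTA (0.932), LAMA1 (0.93), ARID3A (0.92) and GPRC5A (0.903), and the lowest were FAM111A (-0.986), TMPO-AS1 (-0.957), GAS7 (-0.957), PBX3 (-0.952) and CCDC77 (-0.947). FAM111A, a protease linked to DNA replication, averaged 1311 after 24 h of crizotinib, 2285 after 8 h of crizotinib, 1855 after 24 h of ciclopirox, 1728 after 8 h of ciclopirox and 2408 in control. GPRC5A, an orphan G protein-coupled receptor, averaged 1112 after 24 h of crizotinib and 540 after 8 h of crizotinib. It averaged 816 after 24 h of ciclopirox, 734 after 8 h of ciclopirox and 607 in control. GPRC5A, CHURC1, RABGGTA and ARID3A placed crizotinib 8 h below control where BHLHE40 and LAMA1 did not. For CHURC1 that gap was small (135.9 against 136.8). GPRC5A, RABGGTA, LAMA1 and ARID3A averaged higher at 24 h than at 8 h of ciclopirox, while BHLHE40 and CHURC1 averaged lower.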

How the data were processed

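Levels came from Illumina bead arrays, on which 300 ng of RNA per array was amplified and biotin-labelled, per the labels' protocols. The authors deposited a scanner table that gives, per the file headers, each of 47231 probes an intensity and a p-value of detection. Per the submitters' processing notes GenomeStudio was used, and its version is not stated there. They also deposited a normalized table of 38220 probes, whose values (12.0 to 38205.3) are intensities on a linear scale. The sources used here do not give its normalization method.

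The log2 of the deposited normalized intensity was analysed. Probes were kept where 2 or more of the 12 scanner columns had a detection p under 0.01 (16563). A value was above background when it was over the 99th percentile, on its array, of 20196 probes that no array detected. Groups came from the titles. Means per group were fitted over all 12 arrays in R 4.3.3 with limma 3.58.1 (7 residual degrees of freedom, empirical Bayes, two-sided), with Benjamini-Hochberg adjustment over all kept probes within every one of the 9 comparisons. A probe was called where its adjusted p was under 0.05. The fitting code was tested on simulated data.

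Names came from the platform annotation: 27002 probes had 1 symbol, 4 had several and 11214 had none. All probes of the 10 genes were accounted for. Other clock genes were named where called, up to 4 each way, largest first, with USP9X added. Those most like BHLHE40 were named as the 5 highest and 5 lowest correlations. The genes and lists were chosen with earlier results of these data known. Alternatives were scanner signals named by the descriptions (background-corrected and quantile normalized, offset 16), other scalings, an offset, no filter, 1 probe per gene, a replicate block, smaller fits, a prior variance that follows the mean, and leaving out each array.

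Titles give the groups shared replicate numbers. Over the 21 pairs of same-numbered arrays, deviations from the group means correlated at -0.092 to 0.081, so the numbers were not taken to pair the arrays.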

Additional observations from a re-analysis of the deposited data

Results flagged for a closer look

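The change between 24 h and 8 h differed between the drugs for BHLHE40, by an interaction test in limma. The change under crizotinib minus that under ciclopirox was 2.04 on the log2 scale (adjusted p = 1.59e-05). BHLHE40 was higher at 24 h than at 8 h under crizotinib (1.73) and lower under ciclopirox (-0.31). The same test passed for CRY1 on probe ILMN_1760593, with a difference of -0.52 (adjusted p = 0.0484). Its other probe gave 0.04 (adjusted p = 0.904). No group had 4 or more arrays, so single arrays were not tested against their group.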

How the results depend on the processing

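Under the scanner signals named by the descriptions, the count of clock probes called was 0 in place of 3, 1, 2, 2, 4, 3, 3 and 2 for crizotinib 24 h, crizotinib 8 h, ciclopirox 24 h and ciclopirox 8 h against control, the times of crizotinib, the times of ciclopirox, the drugs at 24 h and the difference in change with time, and 2 (both CRY1 probes, higher in crizotinib) in place of 1 for the drugs at 8 h. Of the 21 calls 13 were lost and 8 turned direction: CRY1 ILMN_1760593 gave 0.61 and -0.22 for crizotinib 24 h and ciclopirox 8 h against control, 0.22 between the times of crizotinib and 0.18 between the drugs at 24 h, CRY1 ILMN_2202637 gave 0.15, 0.27 and 0.39 for crizotinib 24 h against control and between the times of crizotinib and of ciclopirox, and DBP gave -0.19 between the times of crizotinib. BHLHE40 kept its direction there, at 1.14 (adjusted p = 0.275), 0.46 (0.66) and 1.47 (0.0597) for crizotinib 24 h, ciclopirox 24 h and ciclopirox 8 h against control. Over all 16563 probes, that setting called 2945 for the drugs at 8 h and 224 for ciclopirox 8 h against control. In each other comparison it called 0. The 2 CRY1 calls at 8 h were 0.61 on ILMN_1760593 and 0.54 on ILMN_2202637, higher in crizotinib. The main fit gave -0.25 and -0.32, lower in crizotinib, with neither called. The cause of the conflict in names was not tested.

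Under the other alternatives none of the 21 calls turned direction. BHLHE40 kept its calls in all 20 of them for crizotinib 24 h against control (1.81 to 1.89), ciclopirox 8 h against control (1.14 to 1.19), the times of crizotinib, the drugs at both times and the difference in change with time (2.0 to 2.08). Its call for ciclopirox 24 h against control was lost only in a fit of those groups alone (adjusted p = 0.0567), and that between the times of ciclopirox in 7 of 20. For crizotinib 8 h against control the count was 0 after scaling to the 75th percentile, with no filter, with the replicate block and with only the groups compared. Of all 16563 probes 1167 passed there in the main fit. In those fits 1159, 238 (of 38220), 691 and 95 passed. For ciclopirox 24 h against control the clock count was 1 with no filter, 1 with the replicate block and 0 with only the groups compared. Of all probes 1165 passed in the main fit, and 327 (of 38220), 808 and 85 in those fits. Between the times of ciclopirox the clock count was 1 in each of those fits. Of all probes 2608 passed in the main fit, and 1056 (of 38220), 1824 and 1461 in those fits. The difference in change with time had 1 with cyclic loess, no filter, the replicate block and only the groups compared. Of all probes 1358 passed in the main fit, and 1314, 476 (of 38220), 977 and 1205 in those fits. The cause was not tested. No filter kept 13 of the 21 calls, only the groups compared 13, the replicate block 15 and cyclic loess 17. Scaling to the 75th percentile kept 20, and an offset of 16 and a prior variance that follows the mean kept all 21. Leaving out 1 array gave counts of 2 to 3, 0 to 1, 1 to 2 and 1 to 2 against control (crizotinib 24 h, crizotinib 8 h, ciclopirox 24 h, ciclopirox 8 h), 3 to 4 and 0 to 3 between times (crizotinib, ciclopirox), 2 to 3 and 1 to 1 between drugs (24 h, 8 h) and 1 to 2 for the difference in change with time. The CRY1 ILMN_1760593 difference in change with time was called in 2 of those 12 fits, without ciclopirox 24 h replicate 1 (-0.61) or crizotinib 8 h replicate 3 (-0.60). A fit that leaves 1 array in a group assumes that it varies like the others. Of the 45 calls of other clock genes, 25 stayed with no filter, 31 with only the groups compared, 39 with the replicate block, 32 to 40 without 1 array, and 0 under the descriptions' names, where 24 turned direction. Signals near background limit DBP, PER3 and BMAL1.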

Other observations

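PER1 read 61.2 on crizotinib 8 h replicate 2 in the normalized table, and at most 29.4 on the other 11 arrays. In the scanner table its signals ran from -12.9 to 10.2, and its lowest detection p-value was 0.15, so no scanner column detected it. Among the 20196 probes detected on no array, 107 reached 61.2 or more on some array of the normalized table.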
